A study of Mus musculus with 7 samples.

Results

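The amino acid response genes described here are 39 genes that the transcription factor ATF4 controls or works with when cells run short of amino acids. They were listed by name, with earlier results of these data known, and looked up in the mouse gene annotation GENCODE M1 (mm9). All 39 were found among the 31498 genes with at least 200 countable exonic bases. Their RNA was read in 4 clones of F123 cells, a hybrid embryonic stem cell (ESC) line from a cross of the castaneus (CAST) and 129 mouse strains, made to ask what the distal super-enhancer of Sox2 does. Wild type cells (CAST+/129+) carry the super-enhancer on both alleles, CAST+/129- cells lack it on the 129 allele, CAST-/129+ cells lack it on the CAST allele, and CAST-/129- cells lack it on both. CAST+/129- and CAST-/129+ are called monoallelic and CAST-/129- biallelic deletions. Each mutant is 1 CRISPR clone, selected with puromycin, recovered on mouse fibroblast feeders and passaged off feeders on gelatin before harvest, and each genotype has 1 library. No difference between genotypes therefore has a replicate check, and no p-value is given. ChIP-seq of histone marks came from wild type F123 cells and from J1 cells, an ESC line of the 129 background.

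Cells that lack an amino acid, or whose protein folding fails, phosphorylate the initiation factor eIF2alpha. General translation then drops while the Atf4 mRNA is translated more, through short reading frames in its leader, so that the level of Atf4 RNA does not report the level of ATF4 protein. ATF4 pairs with C/EBP proteins on the C/EBP-ATF response element and switches on amino acid transporters, biosynthetic enzymes and tRNA synthetases, together with feedback and stress genes such as Trib3, Chac1 and Ddit3.

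The letters of that element, TGATGNAAN on either strand, were searched in RefSeq promoters, from 250 bases before to 50 bases after each start. The table of promoters used here was matched for 33 of the 39 members, and Cars, Cth, Nars, Slc7a3, Slc7a5 and Wars were not analysed here. The letters stood in 12 of 33 members, or 36.4%, against 4.50% of 27025 genes and 3.95% of 32851 promoters. The narrower TGATGCAA, which overlaps the former, was in 8 of 33 members (24.2%) against 1.03% of genes, and the cyclic AMP response element TGACGTCA was in 0 of 33 members against 2.03% of genes. These counts describe letters, not bound sites. The members were listed as genes that ATF4 controls or works with, so the shares of other genes are a background and not a test.

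The stretches below show the element in capitals in 6 members that differ widely in what follows. Chac1 and Pck2 are members with some of the deepest falls, Atf3 and Pycr1 are lowly expressed, Gars did not pass the rule for a change in any mutant library, and Slc7a11 has a pair of elements but almost no RNA. The bases are those of RefSeq promoters (GRCm38.p6) that matched mm9 exactly, printed 5′ to 3′ on the strand of the gene, and no stretch overlaps a GENCODE M1 gene.
Chac1: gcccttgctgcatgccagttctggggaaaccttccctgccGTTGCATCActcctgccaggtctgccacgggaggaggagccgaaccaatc
Pck2: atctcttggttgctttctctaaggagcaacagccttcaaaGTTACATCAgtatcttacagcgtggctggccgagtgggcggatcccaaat
Atf3: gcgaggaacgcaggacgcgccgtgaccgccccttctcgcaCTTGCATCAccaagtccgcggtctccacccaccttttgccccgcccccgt
Pycr1: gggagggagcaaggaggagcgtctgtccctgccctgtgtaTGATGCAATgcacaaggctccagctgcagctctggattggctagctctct
Gars: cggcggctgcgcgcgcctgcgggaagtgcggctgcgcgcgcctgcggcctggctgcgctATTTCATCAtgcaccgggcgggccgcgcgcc
Slc7a11: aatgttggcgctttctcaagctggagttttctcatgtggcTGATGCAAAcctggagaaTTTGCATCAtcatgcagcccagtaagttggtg

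In mm9 the Chac1 stretch lies at chr2:119176744-119176833 (plus strand) and the Pck2 stretch at chr14:56158959-56159048 (plus strand). The Atf3 stretch is at chr1:193007274-193007363 (minus strand), the Pycr1 stretch at chr11:120505116-120505205 (minus strand), the Gars stretch at chr6:54987905-54987994 (plus strand) and the Slc7a11 stretch at chr3:50247552-50247641 (minus strand). The element reads as TGATGCAAC in Chac1, TGATGTAAC in Pck2, TGATGCAAG in Atf3 and TGATGAAAT in Gars once taken on the strand where it begins with TGATG. The other 6 members with the letters were Asns (TGATGAAAC), Nupr1 (TGATGCAAT), Aars (TGATGCAAT and TGATGAAAA), Vldlr (TGATGCAAC), Slc1a4 (TGATGCAAC) and Trib3 (TGATGTAAA), where parts of the window lie in annotated exons or after the start.

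The 4 RNA libraries held between 5847445 and 24891865 distinct alignments on genes, with wild type the deepest and CAST-/129- the shallowest. Levels are given as FPKM, which here counts distinct alignments rather than fragments, per kilobase of exon and scaled to library size, unless reads are named. Sox2 itself was at 174 FPKM in wild type against 81.8 in CAST+/129-, 72.8 in CAST-/129+ and 7.38 in CAST-/129-. The summed FPKM of 8 ESC markers was 1556, 1269, 1223 and 922 in that order. By the rule given next, 1, 1 and 5 of the 8 were down in CAST+/129-, CAST-/129+ and CAST-/129-. Their medians there were 77.3%, 56.7% and 29.0% of wild type. The summed FPKM of 14 fibroblast markers was 255, 223, 229 and 759. In CAST-/129- 10 of them were up and 1, Pdgfra, was down by that rule, with Lum at 0 in wild type. Fn1 makes up much of the fibroblast sum, at 190, 110, 103 and 210 FPKM. In CAST+/129- and CAST-/129+ 8 and 10 of the 14 had intervals above 100% of wild type and 2 were up in each. Col1a1, one of those up, was at 3.47 FPKM in wild type and 38.9 and 38.8 there. In each of these libraries 3 markers, Fn1, Thy1 and Pdgfra, had intervals below 100%. Pdgfra was down by the rule in both, at 7.06% of wild type in CAST+/129- and 11.3% in CAST-/129+. The summed FPKM of 7 trophectoderm markers was 21.0, 340, 572 and 545. Krt8, at 14.6, 139, 263 and 278 FPKM, and Krt18, at 1.81, 133, 229 and 231, make up much of the mutant sums. By the rule, 3, 4 and 3 of the 7 were up in CAST+/129-, CAST-/129+ and CAST-/129-. By intervals Elf5, Eomes, Hand1 and Gata3 were lower in CAST-/129- than in both monoallelic libraries, and Krt8 alone was higher than in both. Whether other cell types in the cultures contribute to the values below was not tested, and in bulk RNA fewer cells of a type cannot be told apart from less RNA per cell.

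Members as a group were lower in each mutant library than in wild type. Their FPKM summed to 2063 in wild type against 1296 in CAST+/129-, 1147 in CAST-/129+ and 1143 in CAST-/129-. As a share of all alignments on genes, this was 0.698% in wild type against 0.455% in CAST+/129-, 0.393% in CAST-/129+ and 0.380% in CAST-/129-. A gene was called down or up when FPKM plus 4 changed at least 3-fold against wild type, the rule of the study. All mutant comparisons use the same wild type library, so they are not independent of each other.

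Because the list was chosen with earlier results of these data known, the shares of other genes here and below are a background and not a test. In CAST-/129- 6 of 39 members were down and 0 were up, where 0.511% of all genes were down and 0.813% were up. In CAST+/129- 6 members were down and 0 up, against 0.305% and 0.321% of all genes. In CAST-/129+ 9 members were down and 0 up, against 0.333% and 0.473% of all genes. Members are mostly well expressed, 38 of 39 having a mean FPKM of 1 or more. Among the 13817 such genes the shares called down were 1.17% in CAST-/129-, 0.695% in CAST+/129- and 0.76% in CAST-/129+. Members were more abundant than these genes, with a median of 46.1 FPKM in wild type against a median mean FPKM of 10.3. The rule adds a constant to FPKM, so a less abundant gene must fall by a larger factor to be called down. The part of abundance in these shares was not tested. The median log2 ratio over the members was -0.81 in CAST-/129-, -0.66 in CAST+/129- and -0.83 in CAST-/129+. Over the 13817 expressed genes it was -0.08, -0.03 and -0.07 in the same order. Over the 4339 genes with a mean FPKM of 20 or more, whose median mean FPKM was 40.4, it was -0.01, 0.14 and 0.09.

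Most members moved less than 3-fold. The ratio to wild type had an exact 95% interval wholly below 100% in 34 members in CAST-/129-, 34 in CAST+/129- and 37 in CAST-/129+. This was so for 41.7%, 39.9% and 40.2% of expressed genes. An interval wholly above 100% was found for Cebpb and Ddit4 in CAST-/129-, for Eprs in CAST-/129+ and for 0 members in CAST+/129-. Expressed genes had such an interval in 31.1% of cases in CAST-/129-, 30.9% in CAST-/129+ and 34.8% in CAST+/129-. Such intervals cover counting error only, not variation between clones or cultures. They narrow as counts rise, and the part of the members' higher abundance in the shares above was not tested.

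**Figure D1:**
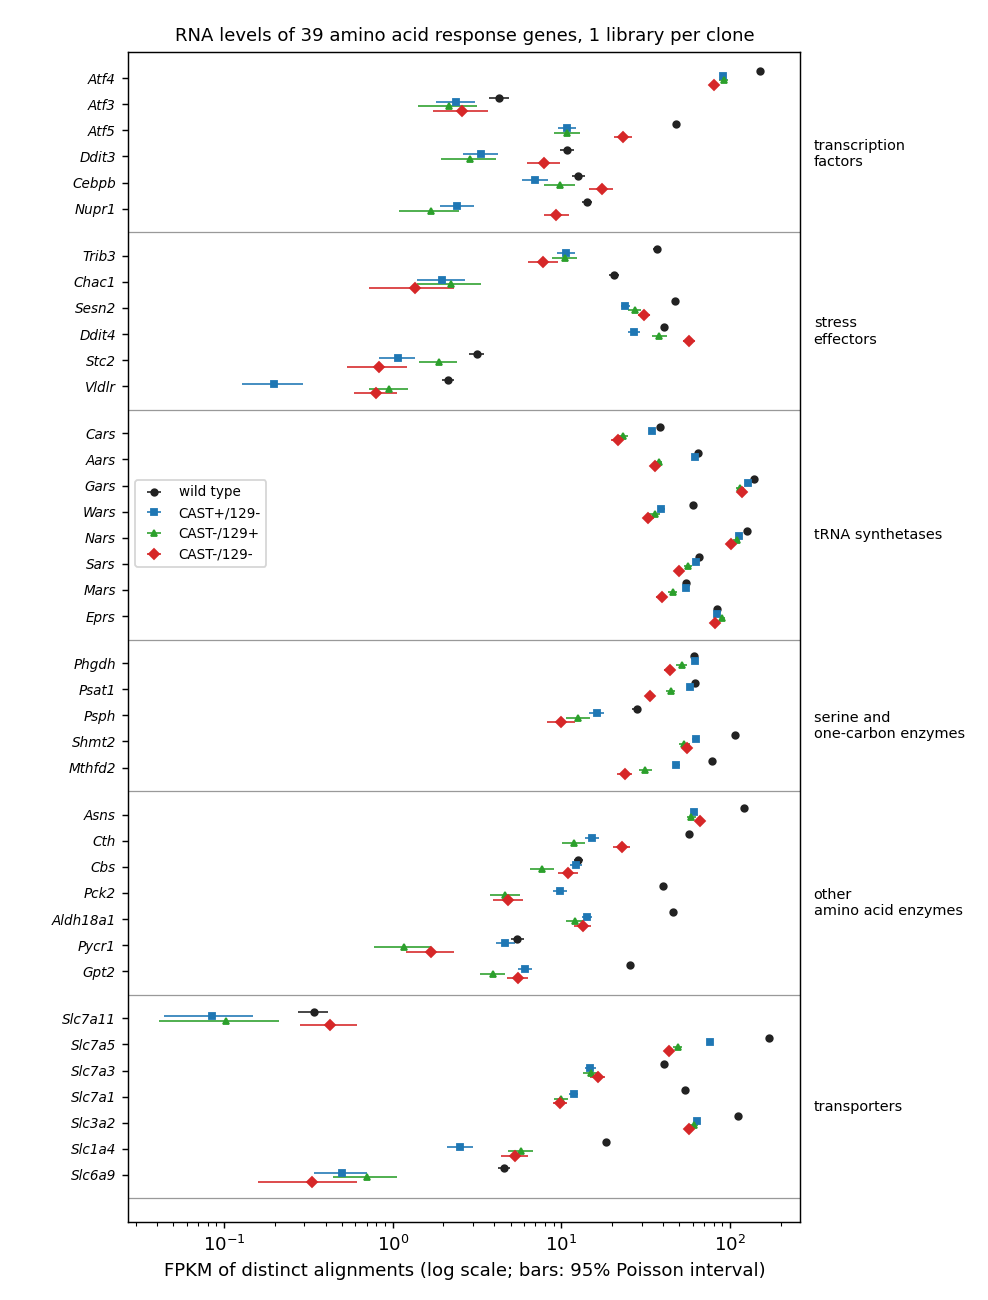
RNA level of each of the 39 members in the 4 libraries, in FPKM of distinct alignments on a log axis, grouped by role. Points are single libraries and bars are exact 95% Poisson intervals of the count, and wild type (black) lies to the right of the mutant libraries for most members, with Cebpb and Ddit4 highest in CAST-/129-.

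The roles differed in how far they moved. Transporters were at a median of 28.6% of the wild type level in CAST-/129-, 25.2% in CAST+/129- and 30.2% in CAST-/129+. The 7 enzymes of asparagine, cysteine, proline, alanine and phosphoenolpyruvate metabolism were at 30.9%, 30.8% and 21.4%, and the 5 serine and one-carbon enzymes at 51.8%, 61.6% and 49.9%. The 6 stress effectors had medians of 31.8%, 31.5% and 51.1%. For the 6 transcription factors the medians were 63.2%, 43.0% and 38.6%. For the 8 tRNA synthetases they were 74.3%, 94.0% and 83.2%, the closest to wild type in percent of FPKM by alignments. The order of the roles depends on the scale. With the pseudo-value of 4 the median log2 ratio in CAST-/129- was -1.18 for the other amino acid enzymes, -1.12 for the transporters and -0.90 for the serine and one-carbon enzymes. It was -0.55 for the stress effectors, -0.40 for the synthetases and -0.39 for the transcription factors. By reads, a unit described below, the synthetases were at 53.3% and the transcription factors at 71.0% in CAST-/129-.

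Among the transcription factors, Atf4 (chr15:80085614-80087970, plus strand) was the most abundant. Its level was 151 FPKM in wild type against 90.9 in CAST+/129-, 91.7 in CAST-/129+ and 80.4 in CAST-/129-. The wild type library was the highest and the intervals of the monoallelic libraries overlapped. In CAST-/129- this was 53.3% of wild type (95% interval 49.5 to 57.4%), short of the 3-fold rule.

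Atf5 (chr7:52067627-52072028, minus strand), a relative of Atf4 that is also controlled through its leader, had 47.8 FPKM in wild type (45.9 to 49.8). It had 10.9 in CAST+/129- (9.60 to 12.2), 10.8 in CAST-/129+ (9.05 to 12.8) and 23.2 in CAST-/129- (20.5 to 26.1). It fell in both monoallelic libraries, with log2 ratios of -1.80 in CAST+/129- and -1.81 in CAST-/129+, while CAST-/129- gave -0.93, short of the rule. The biallelic level thus lay between the monoallelic levels and wild type.

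Nupr1 (chr7:133766763-133770524, minus strand), a small stress-induced nuclear protein, had the same order of libraries. It was at 14.2 FPKM in wild type (13.2 to 15.1) against 2.42 in CAST+/129- (1.90 to 3.03), 1.68 in CAST-/129+ (1.09 to 2.48) and 9.35 in CAST-/129- (7.83 to 11.1). CAST-/129+ alone passed the rule, at a log2 ratio of -1.68, with -1.50 in CAST+/129- and -0.45 in CAST-/129-. The monoallelic intervals overlapped each other, and both lay below the biallelic interval.

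Cebpb, a C/EBP partner of ATF4, had 12.6 FPKM in wild type against 6.98 in CAST+/129-, 9.84 in CAST-/129+ and 17.3 in CAST-/129-. It was highest in CAST-/129-, at 137% of wild type (113 to 165%), and lowest in CAST+/129-, at 55.3% (45.2 to 67.3%). Atf3, a stress-induced repressor, was low throughout, with 4.27 FPKM in wild type against 2.38 in CAST+/129-, 2.16 in CAST-/129+ and 2.59 in CAST-/129-, and its mutant intervals overlapped. Ddit3, which encodes CHOP, had log2 ratios between -1.11 and -0.32.

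Of the stress effectors, Chac1 (chr2:119176965-119180117, plus strand), which breaks down glutathione, showed one of the deepest falls. It had 20.4 FPKM in wild type (19.0 to 21.8) against 1.96 in CAST+/129- (1.40 to 2.66), 2.21 in CAST-/129+ (1.39 to 3.35) and 1.36 in CAST-/129- (0.723 to 2.32). It fell in each mutant library, with log2 ratios of -2.03 in CAST+/129-, -1.97 in CAST-/129+ and -2.19 in CAST-/129-. Only 13 alignments stood behind the biallelic value and 831 behind that of wild type, and the mutant intervals overlapped.

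Trib3 (chr2:152163158-152169768, minus strand), a pseudokinase that holds ATF4 back, was at 36.7 FPKM in wild type (35.1 to 38.4). It was at 10.7 in CAST+/129- (9.46 to 12.0), 10.5 in CAST-/129+ (8.76 to 12.4) and 7.81 in CAST-/129- (6.33 to 9.52). It fell in CAST-/129- at a log2 ratio of -1.79, and the monoallelic log2 ratios of -1.47 and -1.49 were just short of the rule.

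Ddit4, also known as REDD1, and Sesn2 both restrain the growth kinase mTORC1. Ddit4 had 40.8 FPKM in wild type against 26.9 in CAST+/129-, 38.1 in CAST-/129+ and 56.8 in CAST-/129-, so that CAST-/129- was the highest at 139% of wild type (126 to 153%). Sesn2 had 46.9 FPKM in wild type against 23.9 in CAST+/129-, 27.1 in CAST-/129+ and 31.0 in CAST-/129-, with wild type the highest. The remaining members of the group were low. Stc2, a secreted glycoprotein, had 3.14, 1.07, 1.88 and 0.826 FPKM in the same order, and Vldlr, a lipoprotein receptor, lay between 0.199 in CAST+/129- and 2.13 in wild type.

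Transporters held 3 members past the rule. Slc7a1 (chr5:149138986-149211480, minus strand), a carrier of arginine and lysine, had 54.0 FPKM in wild type (52.9 to 55.0). It had 11.8 in CAST+/129- (11.1 to 12.5), 9.99 in CAST-/129+ (9.09 to 10.9) and 9.77 in CAST-/129- (8.87 to 10.7). It fell in each mutant library, with log2 ratios of -1.88, -2.05 and -2.07, and the CAST-/129+ and CAST-/129- intervals overlapped.

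Slc7a5 (chr8:124405052-124431594, minus strand), the light chain of the LAT1 carrier of large neutral amino acids, was at 169 FPKM in wild type (166 to 172), the highest of the members by alignments. By reads Asns, Gars and Nars were above it, at 223, 220 and 196 FPKM against 190 for Slc7a5. Its mutant levels by alignments were 76.1 in CAST+/129- (73.5 to 78.7), 49.0 in CAST-/129+ (46.1 to 52.1) and 43.7 in CAST-/129- (40.9 to 46.6). It fell in CAST-/129+ at -1.71 and in CAST-/129- at -1.86, and its log2 ratio in CAST+/129- was -1.11. Its heavy chain Slc3a2 had 111 FPKM in wild type against 63.5 in CAST+/129-, 60.7 in CAST-/129+ and 56.7 in CAST-/129-, so the light chain stood at 25.9% of wild type and the heavy chain at 50.9% in CAST-/129-.

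Slc1a4 (chr11:20202183-20232716, minus strand), the ASCT1 carrier of small neutral amino acids, had 18.4 FPKM in wild type (17.6 to 19.3). It had 2.51 in CAST+/129- (2.09 to 2.99), 5.74 in CAST-/129+ (4.82 to 6.79) and 5.27 in CAST-/129- (4.37 to 6.30). Here CAST+/129- was the lowest and the only library past the rule, at a log2 ratio of -1.78, with -1.20 in CAST-/129+ and -1.27 in CAST-/129-.

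Slc7a3, another arginine carrier, had 40.3 FPKM in wild type and 14.8, 14.9 and 16.4 in CAST+/129-, CAST-/129+ and CAST-/129-, and neighbouring intervals among the mutants overlapped. The glycine carrier Slc6a9 had 4.57 FPKM in wild type and 0.498, 0.704 and 0.333 in the mutants. It stood at 7.28% of wild type in CAST-/129- (3.47 to 13.5%), but the pseudo-value of 4 holds its log2 ratio at -0.98. Slc7a11, the cystine carrier whose promoter stretch with a pair of elements is shown above, was between 0.0855 FPKM in CAST+/129- and 0.426 in CAST-/129- and is in practice at the lower end of what these libraries measure. More alignments lay on its antisense than on its sense strand in every library, 490 against 95 in wild type.

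Among the other amino acid enzymes, Pck2 (chr14:56159103-56168854, plus strand), the mitochondrial phosphoenolpyruvate carboxykinase, fell in each mutant library. It had 40.0 FPKM in wild type (38.7 to 41.4) against 9.85 in CAST+/129- (8.92 to 10.8), 4.64 in CAST-/129+ (3.76 to 5.67) and 4.83 in CAST-/129- (3.91 to 5.90). Its log2 ratios were -1.67, -2.35 and -2.32. The intervals of CAST-/129+ and CAST-/129- overlapped, and both lay below that of CAST+/129-.

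Gpt2 (chr8:88016475-88051459, plus strand), the mitochondrial alanine transaminase, had 25.4 FPKM in wild type (24.5 to 26.2). It had 6.09 in CAST+/129- (5.53 to 6.69), 3.91 in CAST-/129+ (3.27 to 4.63) and 5.52 in CAST-/129- (4.74 to 6.38). It fell in CAST-/129+ at -1.89 and in CAST-/129- at -1.63, and CAST+/129- gave -1.54. The biallelic library was not the lowest, and its call held under 3 of 8 alternative settings.

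Cth (chr3:157557212-157588041, minus strand), which makes cysteine from cystathionine, had 56.9 FPKM in wild type (54.9 to 58.9). It had 15.2 in CAST+/129- (13.8 to 16.7), 11.8 in CAST-/129+ (10.1 to 13.8) and 22.8 in CAST-/129- (20.3 to 25.5). It fell in the monoallelic libraries, at -1.67 and -1.94, and gave -1.18 in CAST-/129-. Cbs, which catalyses the step before, was much less changed, with 12.6 FPKM in wild type against 12.2 in CAST+/129-, 7.68 in CAST-/129+ and 10.9 in CAST-/129-.

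Aldh18a1 (chr19:40624747-40662953, minus strand) opens the path from glutamate to proline. It had 46.1 FPKM in wild type (44.8 to 47.4) against 14.2 in CAST+/129- (13.2 to 15.3), 12.0 in CAST-/129+ (10.7 to 13.5) and 13.4 in CAST-/129- (11.9 to 15.0). It fell in CAST-/129+ at -1.64, and the other two log2 ratios, -1.46 in CAST+/129- and -1.53 in CAST-/129-, lay close to the rule. Pycr1, the last enzyme of the path, had 5.48 FPKM in wild type against 4.66 in CAST+/129-, 1.17 in CAST-/129+ and 1.69 in CAST-/129-. Both low values were in the clones that lack the CAST copy, and their intervals overlapped.

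Asns, which makes asparagine from aspartate and is the classical target of the pathway, had 121 FPKM in wild type against 60.9 in CAST+/129-, 58.9 in CAST-/129+ and 66.1 in CAST-/129-. In percent of wild type the mutants stood at 50.3, 48.6 and 54.6, short of the rule, and neighbouring mutant intervals overlapped. Asns was also a member whose size of change depended on the counting unit, as described below.

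None of the serine and one-carbon enzymes passed the rule. Mthfd2, a mitochondrial folate enzyme, came closest, with 77.7 FPKM in wild type against 47.9 in CAST+/129-, 31.5 in CAST-/129+ and 23.8 in CAST-/129-, and its 4 intervals did not overlap. Its log2 ratio in CAST-/129- was -1.56, and it passed the rule there under 3 of 8 alternative settings, one of them the count of reads, at -1.81. Psph, the last step of serine synthesis, had 27.9 FPKM in wild type against 16.2 in CAST+/129-, 12.6 in CAST-/129+ and 9.97 in CAST-/129-. Shmt2, which passes the carbon of serine to folate in mitochondria, had 107, 62.5, 53.5 and 55.5 FPKM. The remaining pair, Psat1 and Phgdh, kept 53.8% and 71.4% of the wild type level in CAST-/129-, and 93.3% and 101% in CAST+/129-. Phgdh is uncertain because 51.9% of its exonic 50-base words also occur elsewhere in the genome.

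No tRNA synthetase passed the rule in any library. Wars, which charges the tRNA of tryptophan, had 60.3 FPKM in wild type against 39.1 in CAST+/129-, 35.7 in CAST-/129+ and 32.7 in CAST-/129-. Aars, the synthetase of alanine, had 64.2, 61.7, 38.0 and 35.7 FPKM, so that it was near wild type in CAST+/129- and at 55.6% in CAST-/129- (53.0 to 58.3%). Cars, that of cysteine, had the same order with 38.2, 34.4, 23.1 and 21.5 FPKM. Gars, Nars, Sars, Mars and Eprs lay between 71.6% and 97.1% of the wild type level in CAST-/129-, between 89.4% and 100.1% in CAST+/129- and between 83.0% and 108% in CAST-/129+.

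Aars, Gpt2 and Slc7a5 lie on chromosome 8, as do genes of the lists below, among them Eif4ebp1, Gdf15, Herpud1 and Hmox1. The median log2 ratio of the 720 expressed genes of that chromosome was -0.25 in CAST-/129-, -0.29 in CAST-/129+ and 0.05 in CAST+/129-. Over the other chromosomes the medians lay between -0.16 and 0.04. These members thus share a chromosome whose genes as a whole were lower in CAST-/129- and CAST-/129+. Aars was lowest in the same libraries, and Slc7a5 and Gpt2 passed the rule in them and not in CAST+/129-. The log2 ratio of Gpt2 in CAST-/129-, at -1.63, lay close to the rule. The part of the chromosome in these values and calls was not tested.

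**Figure D2:**
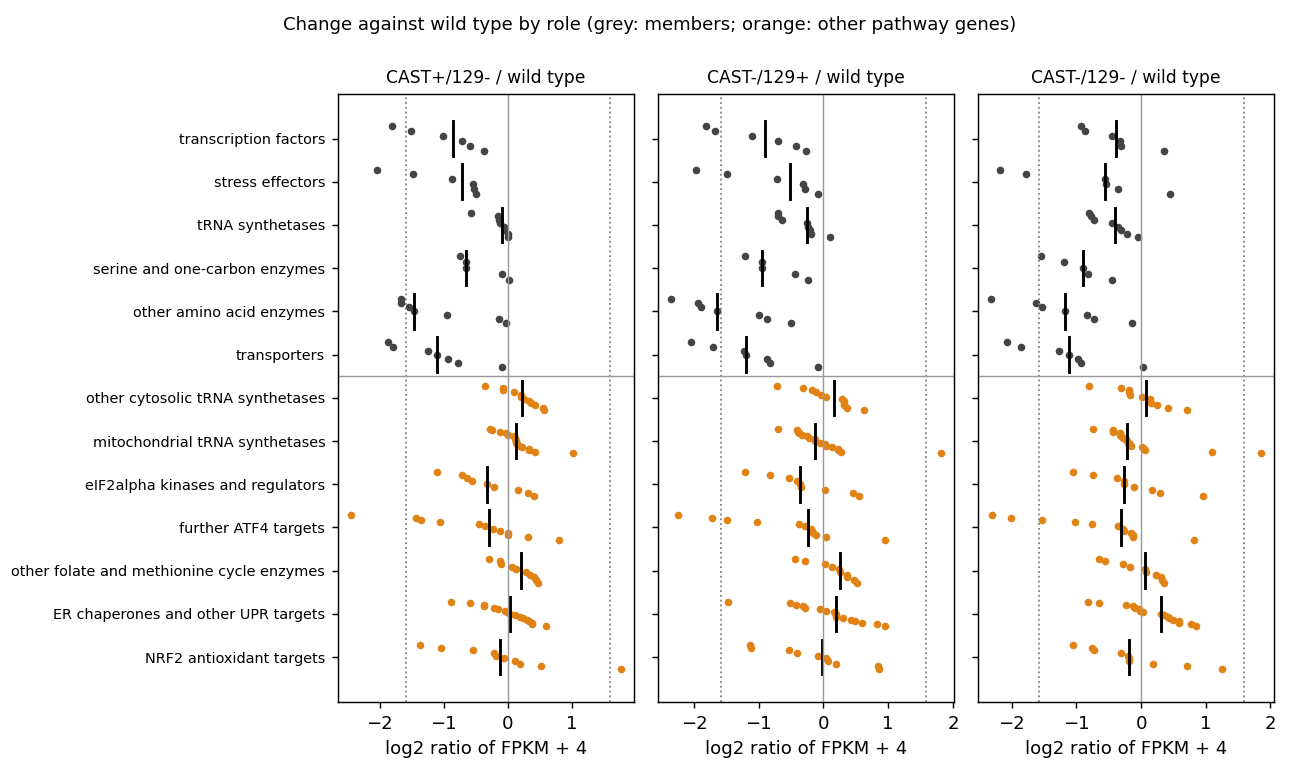
Log2 ratio of FPKM plus 4 of each mutant library to wild type, with 1 point per gene and a black bar at the median of each group. Grey points are the members by role, orange points are genes of other pathways, and dotted lines mark the 3-fold rule, which 6, 9 and 6 members passed downwards in CAST+/129-, CAST-/129+ and CAST-/129-.

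Neighbouring pathways were read in the same way. The 12 cytosolic tRNA synthetases that are not members had medians of 105% of the wild type level in CAST-/129-, 119% in CAST+/129- and 113% in CAST-/129+, and 0 passed the rule. The one that moved most in CAST-/129- was Yars, at 52.4% of wild type. The 17 mitochondrial synthetases had medians of 80.7%, 112% and 81.9%, and Lars2 was up in CAST-/129- and CAST-/129+, with 155 FPKM in wild type against 317 in CAST+/129-, 553 in CAST-/129+ and 568 in CAST-/129-. Lars2 had 12.5 reads per alignment in wild type, and after the libraries were thinned to equal reads it stood at 222% of wild type in CAST-/129+ and 206% in CAST-/129-, short of the rule. By reads it was at 395% and 380%, past the rule in both. Whether the exonic sequence of Lars2 also occurs elsewhere in the genome was not tested. Among 9 kinases and regulators of eIF2alpha, 0 passed the rule and the phosphatase subunit Ppp1r15a, itself an ATF4 target, moved most, from 22.2 FPKM in wild type to 8.13, 7.34 and 8.62.

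Of 12 further ATF4 targets, 2 were down in CAST-/129-, 1 in CAST+/129- and 2 in CAST-/129+. Jdp2, a bZIP repressor, fell in each, from 27.8 FPKM in wild type to 1.87 in CAST+/129-, 2.72 in CAST-/129+ and 2.43 in CAST-/129-. Vegfa, the vascular growth factor, had 34.4, 11.0, 9.69 and 5.50 FPKM and fell in CAST-/129-. Gdf15, a stress hormone, had 12.4, 2.08, 0.977 and 1.66 FPKM and fell in CAST-/129+. The interval of the ratio lay wholly below 100% in 10 of the 12 in CAST-/129-, 7 in CAST+/129- and 9 in CAST-/129+. Genes named after their values were seen lay at either end or on both sides of wild type. Aldh1l2, a mitochondrial folate enzyme, was at 6.39% of the wild type level in CAST+/129-, 8.31% in CAST-/129+ and 8.64% in CAST-/129-, but at 5.01 FPKM in wild type the pseudo-value of 4 holds its log2 ratios between -1.06 and -1.02. The amino acid carrier Slc38a2 was at 181% in CAST+/129-, 202% in CAST-/129+ and 182% in CAST-/129-. The translation repressor Eif4ebp1 was at 125% in CAST+/129-, 82.0% in CAST-/129+ and 58.0% in CAST-/129-. The median log2 ratio of these 12 genes was -0.32 in CAST-/129-, -0.30 in CAST+/129- and -0.24 in CAST-/129+, smaller in size than that of the members.

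The remaining lists served as a contrast for stress in general. Of 17 endoplasmic reticulum chaperones and other unfolded protein response genes, 0 passed the rule, with medians of 124% in CAST-/129-, 103% in CAST+/129- and 115% in CAST-/129+, and Hsp90b1 had the largest log2 ratio of FPKM plus 4 in CAST-/129-, at 184% of wild type. Genes of that list named after their values were seen were lower in every mutant library, Herpud1 at 44.8% in CAST+/129-, 22.9% in CAST-/129+ and 55.9% in CAST-/129-, and Xbp1 at 62.6%, 66.2% and 51.9%. Of 10 other folate and methionine cycle enzymes, 0 passed, with medians of 107%, 116% and 120%, and Gldc moved most in CAST-/129- at 61.1%. Of 10 NRF2 antioxidant targets, Hmox1 was up in CAST+/129-, with 40.0 FPKM in wild type and 145 there, and the medians were 85.0%, 90.9% and 98.7%. The 8 housekeeping genes had medians of 113%, 108% and 113%. No test compares these lists with the members.

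CAST-/129- can be set against each monoallelic library without wild type. By the interval of that ratio, which can lie off 100% where the intervals of the levels overlap, as for Asns and Sesn2, 9 of 39 members were higher in CAST-/129- than in both monoallelic libraries, against 16.4% of the expressed genes. Another 9 were lower than in both, against 17.6%, so neither count lay far from the background. The members higher than both were Atf5, Ddit3, Cebpb, Nupr1, Sesn2, Ddit4, Asns, Cth and Slc7a11. For Slc7a11 this rests on 28 alignments in CAST-/129- against 12 in CAST+/129- and 7 in CAST-/129+. The lower ones were Atf4, Trib3, Nars, Sars, Mars, Phgdh, Psat1, Mthfd2 and Slc7a5.

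The members below were picked after their values were seen. Nupr1 in CAST-/129- was at 387% of CAST+/129- (289 to 521%) and 557% of CAST-/129+ (362 to 892%). Ddit3 was at 238% (170 to 332%) and 274% (178 to 432%). Atf5 was at 214% of either. In contrast, Mthfd2 was at 49.7% of CAST+/129- (44.4 to 55.7%) and 75.6% of CAST-/129+ (66.1 to 86.5%), and Psat1 was at 57.7% and 75.0%. All 14 fibroblast markers were also higher in CAST-/129- than in both monoallelic libraries by intervals, and their part in the higher members was not tested.

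**Figure D3:**
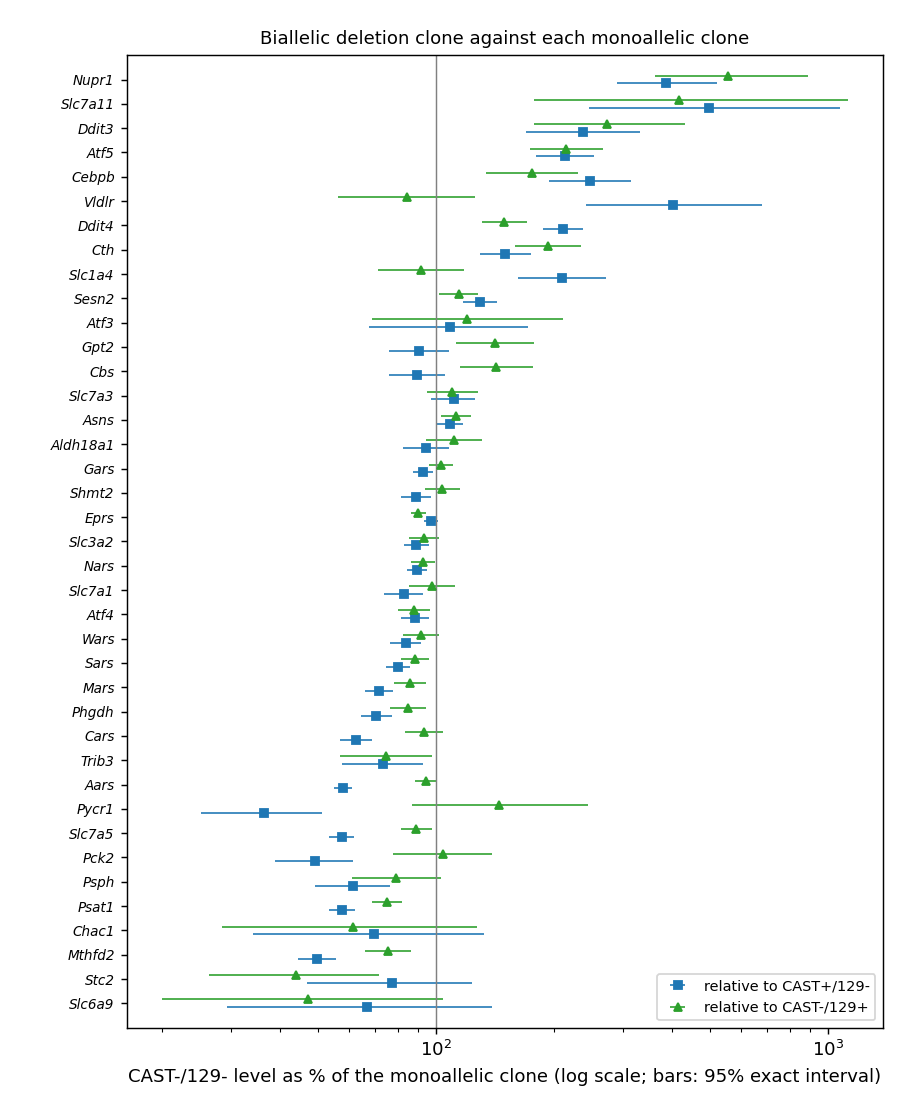
Level of each member in CAST-/129- as a percentage of CAST+/129- (blue squares) and of CAST-/129+ (green triangles), on a log axis with exact 95% intervals. Nupr1, Ddit3, Atf5 and Cebpb lie above 100% of both, and Atf4, Trib3, Mthfd2 and Psat1 lie below it.

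The counting unit changed the size of the differences for some members. In the deposited files identical alignments are collapsed to 1 line with a whole number, read here as the number of reads behind that line, which the labels do not state. All values by reads rest on that reading. Members had 2.99 reads per alignment in wild type against 1.67 in CAST+/129-, 1.46 in CAST-/129+ and 1.33 in CAST-/129-. Over all alignments on genes the figures were 2.61, 1.79, 1.64 and 1.47. Asns was at 54.6% of wild type in CAST-/129- by distinct alignments and at 28.5% by reads. It was at 50.3% and 26.2% in CAST+/129-, and at 48.6% and 25.0% in CAST-/129+, so that by reads it passed the rule in each. When the reads of every library were thinned to the total of the shallowest and collapsed anew, Asns was at 41.4% in CAST-/129-, 39.5% in CAST+/129- and 37.2% in CAST-/129+, between the other values.

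Abundant synthetases shifted in the same way. In CAST-/129- Gars was at 85.5% by alignments and 54.2% by reads, Nars at 80.1% and 52.4%, and Aars at 55.6% and 33.9%. The median of the 8 synthetases by reads was 53.3% in CAST-/129-, 68.7% in CAST+/129- and 55.6% in CAST-/129+, and all 8 were below wild type in each. The 12 cytosolic synthetases outside the list moved too, to medians of 74.0%, 96.3% and 84.0%. For 4339 genes that averaged 20 FPKM or more the median ratio hardly depended on the unit, at 99.1% by alignments and 98.7% by reads in CAST-/129-. Each unit is scaled to its own total on genes, so this median cannot show whether single abundant genes outside the list shift with the unit. Over all 39 members the median by reads was 40.8% in CAST-/129-, 45.0% in CAST+/129- and 35.9% in CAST-/129+. Atf4, at 53.3% by alignments and 51.3% by reads in CAST-/129-, Chac1, at 6.66% and 7.58%, and Pck2, at 12.1% and 12.7%, differed little. Other members were higher by reads in CAST-/129-, among them Slc7a11, at 125% and 192%, Stc2, at 26.3% and 37.5%, and Atf3, at 60.5% and 78.8%. Eprs and Phgdh, which were at or above 100% in CAST+/129- by alignments, were at 75.7% and 84.1% by reads.

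Several calls near the 3-fold rule also turned on the unit. By reads Trib3 and Gpt2 no longer passed it in CAST-/129-, at log2 ratios of -1.45 and -1.53, nor did Slc1a4 in CAST+/129-, at -1.50. Atf5 and Nupr1 no longer passed in CAST-/129+, at -1.50 and -1.57. Mthfd2 passed by reads in CAST-/129- at -1.81, and Aldh18a1 in CAST+/129- at -1.67.

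**Figure D4:**
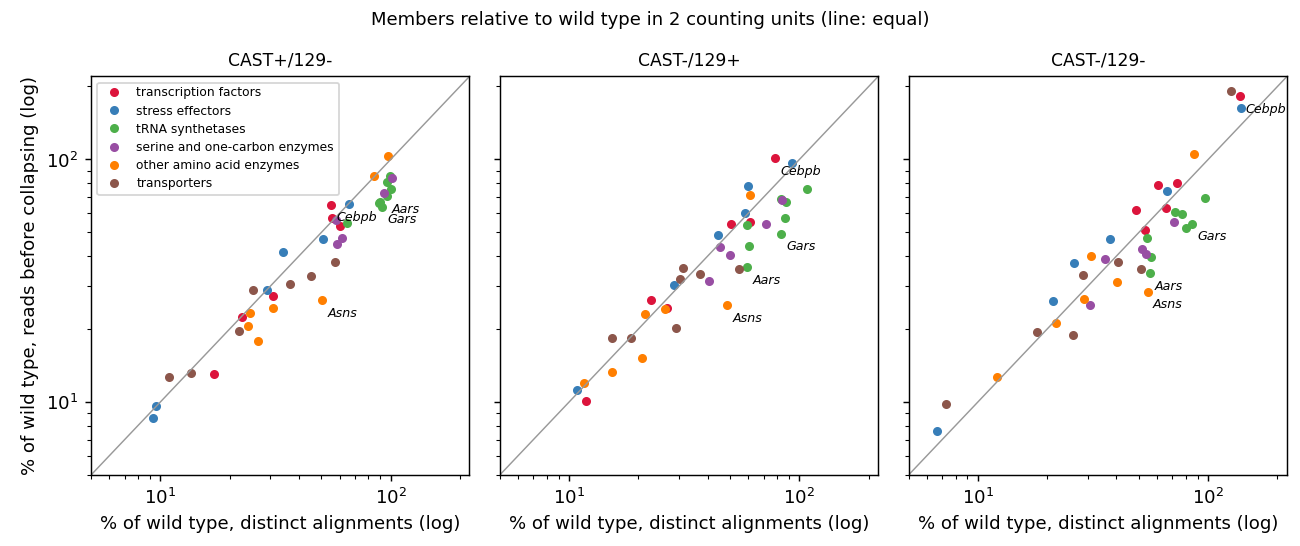
Each member as a percentage of wild type, counted as distinct alignments (horizontal) and as reads before identical alignments were collapsed (vertical), both on log axes, in the 3 mutant libraries. Points below the line are lower by reads, as for Asns and the synthetases (green), and Cebpb in CAST-/129- is higher by reads, at 182% against 137%.

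Members with and without the response element letters in their RefSeq promoter were set side by side. The 12 with TGATGNAAN were at a median of 46.0% of the wild type level in CAST-/129-, 27.1% in CAST+/129- and 30.7% in CAST-/129+. The 21 without it were at 53.3%, 58.2% and 57.8%. With the pseudo-value of 4 the median log2 ratios were -0.76 and -0.82 in CAST-/129-, -0.75 and -0.66 in CAST+/129-, and -0.93 and -0.71 in CAST-/129+. Members with the letters were the less abundant ones, with a median of 19.4 FPKM in wild type against 47.8.

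Histone marks at the gene starts were available for wild type cells only, so they describe the promoters before any deletion. H3K4me3, a mark of active promoters, was at least 5-fold over the genome mean within 2 kb of the start in 34 of 39 members (87.2%), against 67.1% of 13817 expressed genes. H3K27ac, a mark of active promoters and enhancers, was over 5-fold in 27 of 39 in F123 cells (69.2% against 42.8%) and in 16 of 39 in J1 cells (41.0% against 34.5%). Members were more abundant than the expressed genes as a whole, and the part of abundance in these shares was not tested. No input library was used. Distinct alignments numbered 7108751 for H3K4me3 and 1576875 for H3K27ac in F123 cells, against 7743500 for H3K27ac in J1 cells. Whether depth has a part in the difference between F123 and J1 was not tested.

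The marks varied with the member. Ddit3 had the most H3K27ac in F123, at 59.2-fold, followed by Atf4 at 49.9-fold (41.5 to 59.5) and Trib3 at 45.8-fold (37.8 to 55.1), whose intervals overlapped with that of Ddit3. Slc7a11, which had almost no RNA, was at 0.990-fold for H3K4me3 and 1.22-fold for H3K27ac. Chac1, Pck2 and Slc7a1, which fell in each mutant library, were at 13.7-fold, 7.38-fold and 19.9-fold for H3K4me3 and 3.65-fold, 12.6-fold and 18.7-fold for H3K27ac. Nupr1 was low in H3K4me3, at 2.25-fold. Psat1 was at 1.44-fold at the annotated start, which lies 22278 bases from a RefSeq start where it had 18.4-fold.

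**Figure D5:**
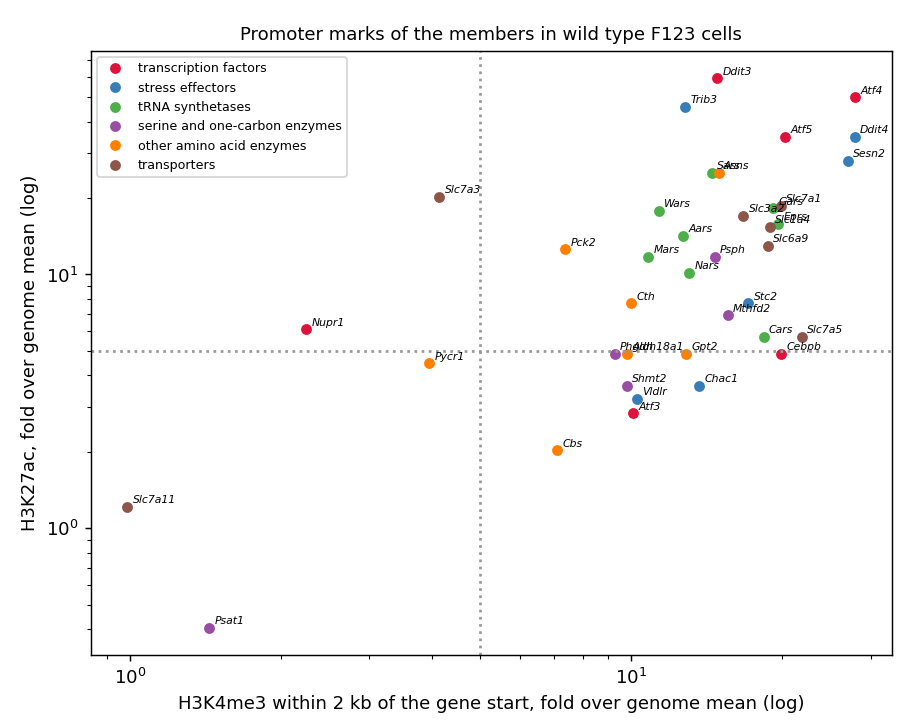
Alignment ends of H3K4me3 (horizontal) and H3K27ac (vertical) within 2 kb of each member's annotated start in wild type F123 cells, as fold over the genome mean on log axes, coloured by role. Dotted lines mark 5-fold, and 34 members lie past it for H3K4me3 and 27 for H3K27ac.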

How the data were processed

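The 4 RNA-seq and 3 ChIP-seq files deposited by the authors list aligned positions on mm9, with whole-number counts in the fifth column, read here as reads per alignment, which the labels do not state. RNA was polyA-selected, sequenced with strand and mapped with Novoalign, and ChIP-seq reads were mapped with Bowtie, per the study's methods and the submitters' processing notes. Identical alignments are collapsed. Alleles were not told apart.

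Distinct alignments were counted by their midpoint on the sense strand in exonic sequence that a single GENCODE M1 gene of the strand owns, and divided by length and by all alignments on genes to give FPKM. Ratios are of FPKM plus 4 with a 3-fold rule, as the study states. Intervals at 95% are exact, Poisson for a level and binomial for a ratio between libraries, and cover counting error only. The rule was tested on simulated data.

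The members and lists were chosen with earlier results of these data known. Named are members past 3-fold, up to 3 others of a role with the largest change in CAST-/129-, and in other lists those past 3-fold or else the largest change. The remaining members are accounted for by values or ranges. ChIP alignment ends were counted around gene starts, without input. Alternatives changed library size, unit, pseudo-value, threshold, filter, strand, counted bases, window and start. The tools were matplotlib 3.10.9, numba 0.67.0, scipy 1.17.1, pandas 2.3.3 and numpy 2.4.6 under Python 3.11.15.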

Additional observations from a re-analysis of the deposited data

Results flagged for a closer look

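Cebpb and Ddit4 went in opposite directions in different mutant libraries. Cebpb was at 137% of wild type in CAST-/129- and below wild type in both monoallelic libraries, at 55.3% in CAST+/129- and 78.1% in CAST-/129+. Counted as reads, it was at 101% in CAST-/129+. Ddit4 was at 139% of wild type in CAST-/129- and at 66.0% in CAST+/129-, while CAST-/129+ was at 93.3% with an interval that reaches 100%. With 1 library for each genotype these differences between genotypes were not tested.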

How the results depend on the processing

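No paired analysis was possible because each genotype has 1 library and no library is replicated. The number of members down in CAST-/129- (6 in the report) was 10 with a pseudo-value of 1, 3 with 10, 12 at 2-fold and 0 at 5-fold, where the share of expressed genes down went from 1.17% to 3.86%, 0.362%, 4.37% and 0.210%. In CAST+/129- (6 in the report) it was 11, 0, 13 and 0 under these settings (from 0.695% of expressed genes to 2.40%, 0.174%, 2.90% and 0.101%), and 3 when library size took in every alignment, on genes or not (0.449%). In CAST-/129+ (9 in the report) it was 4 with a pseudo-value of 10, 14 at 2-fold and 1 at 5-fold (from 0.76% to 0.232%, 3.49% and 0.116%). The median log2 ratio of the members in CAST-/129- (-0.81) was -1.04 with reads before collapsing and median of ratios size factors, which were chosen after seeing the data. In CAST+/129- (-0.66) it was -0.80 with reads, -0.79 with reads and size factors, and -0.53 with a pseudo-value of 10, which gave -0.63 in CAST-/129+ (-0.83). J1 H3K27ac was over 10-fold in 10 members, against 16 over 5-fold. With RefSeq starts, also chosen after seeing the data, H3K4me3 was over 5-fold in 30 of 33 members against 29 of the same members at annotated starts. The 117 single-gene ratios under 9 settings gave 1053 values, of which 247 moved past their counting interval and 0 changed from one called direction to the other. No member was called up under any setting, so a change between called directions could hardly occur. Some small log2 ratios did change sign, among them that of Cbs in CAST-/129-, which ranged from -0.184 to 0.051. Depth limits Slc7a11, Slc6a9, Chac1, Atf3, Stc2, Vldlr, Nupr1 and Pycr1, among others, and variation between clones was not measured. The call of Nupr1 in CAST-/129+ rests on 25 alignments.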
